A study of Schizosaccharomyces pombe with 4 samples.

Results

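The genes for the elongation step of protein synthesis in the fission yeast Schizosaccharomyces pombe were examined for RNA polymerase II phosphorylated at serine 5, together with 2 genes for factors that work beside them. The 9 genes, of 5113 protein-coding genes in the annotation, were chosen by name: tef101, tef102 and tef103 (EF-1 alpha), tef5 (a subunit of its exchange factor), eft201 and eft202 (EF-2), tef3 (eEF3), tif1 (eIF4A) and tif51 (eIF5A). Earlier results of these data were known when they were chosen, so counts set beside all genes are description only. For each gene the deposited intervals in its body and in 500 bp on either side were collected. The study set wild-type cells beside a mutant labelled ABP1d, named for Abp1, a fission yeast homolog of the centromere protein CENP-B. Both were taken from exponential growth in YES, a rich medium, and fixed with formaldehyde. Chromatin was precipitated with an antibody sold against the serine 5 form (Abcam ab5131), and the library kit was one made for RNA. Each genotype has 1 ChIP sample and 1 input. The inputs were not analysed here, and each ChIP sample has 1 interval list, so there is no replicate error and no test between genotypes was possible.

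There were 3242 intervals in the wild-type list and 2851 in that of ABP1d. Each interval carries a whole number, the authors' score, whose unit is not stated. The lowest score was 200 in both lists and the median was 206 in both. Read depth and any scaling of one list to the other are unknown, so scores are compared only within a list. A covered base means a base inside an interval, so covered length also depends on depth. The locus of the deleted or altered gene, SPBC1105.04c, had no interval in either list, so it does not check the genotype labels.

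During elongation EF-1 alpha, a GTPase, brings aminoacyl-tRNA to the ribosome. The eEF1B complex, which contains the tef5 product, exchanges its GDP for GTP. EF-2, another GTPase, moves the ribosome along the mRNA by 1 codon, and eEF3, an ATPase of fungi, helps the used tRNA leave. eIF4A is the RNA helicase of initiation, and eIF5A, which carries the modified residue hypusine, helps the ribosome through slow peptide bonds. Cells in rapid growth make these proteins in large amounts. Serine 5 phosphorylation of the polymerase's C-terminal repeats is set at initiation and is best known from the first part of genes.

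The genes fall into copies and single genes, and the sequences show what can be assigned to which. The EF-1 alpha genes are tef101 (SPCC794.09c, chromosome III, 267955 to 269516, minus strand), tef102 (SPAC23A1.10, chromosome I, 4095132 to 4096584, plus strand) and tef103 (SPBC839.15c, chromosome II, 626004 to 627522, minus strand). Positions are 1-based on the assembly ASM294v3. Their coding sequences have 1383 bases each. tef101 and tef102 differ at 16 of them, tef101 and tef103 at 19, and tef102 and tef103 at 15. The encoded proteins of 460 residues differ at 1 residue between tef101 and either of the others and at none between tef102 and tef103. The last 90 coding bases hold 10 of the 25 positions at which the copies differ, and are shown because single-copy sequence begins here. Capitals mark those positions.
tef101 (chrIII:268097-268186, minus strand): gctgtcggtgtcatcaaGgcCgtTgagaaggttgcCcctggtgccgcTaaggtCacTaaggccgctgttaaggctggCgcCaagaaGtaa
tef102 (chrI:4096495-4096584, plus strand): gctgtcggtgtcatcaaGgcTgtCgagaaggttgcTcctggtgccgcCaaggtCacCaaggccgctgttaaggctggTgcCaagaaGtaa
tef103 (chrII:626106-626195, minus strand): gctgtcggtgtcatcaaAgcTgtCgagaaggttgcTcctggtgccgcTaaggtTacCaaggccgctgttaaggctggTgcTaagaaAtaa

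In the middle of the gene the copies cannot be told apart by short reads that lie wholly between the differences. The longest stretch with no difference among the 3 copies is 218 bases long (coding bases 520 to 737) and is shown from tef101 as an example of what a read from any of them would match.
identical stretch (chrIII:268743-268960, minus strand): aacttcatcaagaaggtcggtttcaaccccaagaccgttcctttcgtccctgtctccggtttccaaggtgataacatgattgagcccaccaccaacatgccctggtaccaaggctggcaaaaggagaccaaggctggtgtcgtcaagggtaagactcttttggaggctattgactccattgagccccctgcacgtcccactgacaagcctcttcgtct
Stretches of 50 bases that occur more than once in the genome begin and end inside the coding sequence, and span 1307 bases of tef101 and 1304 of tef102 and of tef103. The span from the first to the last such base is called the shared stretch below. Outside the coding sequence the copies part: of the 100 bases before it, read without gaps, tef101 matched tef102 at 28 and tef103 at 26.

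The EF-2 genes are closer still. Those of eft201 (SPAC513.01c, chromosome I, 2907643 to 2910261, minus strand) and eft202 (SPCP31B10.07, chromosome III, 537290 to 539922, plus strand) differ at 11 of 2529 coding bases and encode the same 842 residues. Their shared stretch is 2481 bases long. The coding bases 1677 to 1767 are shown because the wild-type intervals of the copies differ here and nowhere else inside the shared stretch except at its ends. The capital marks the only difference, T1722C, with eft201 first and positions counted from the first coding base.
eft201 (chrI:2908463-2908553, minus strand): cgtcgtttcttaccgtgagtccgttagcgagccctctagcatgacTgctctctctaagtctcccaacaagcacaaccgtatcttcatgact
eft202 (chrIII:539002-539092, plus strand): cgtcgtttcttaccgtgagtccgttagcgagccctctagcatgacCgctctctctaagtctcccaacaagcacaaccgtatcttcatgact

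All 3 EF-1 alpha genes were covered from end to end or nearly so, and they held the highest score of either list. In wild type 1468 of 1562 bp of tef101, 1445 of 1453 bp of tef102 and all 1519 bp of tef103 were covered. In ABP1d the values were 1532, 1453 and 1519 bp. The coding sequence was complete in every case but tef102 in wild type, where the last 8 bases were left out. The score was 2503 at each copy in wild type and 4092 at each copy in ABP1d. Equal scores at 3 loci that share sequence make 1 observation, and how reads with several matches were placed is not given in the sources used here. All 25 positions that differ among the copies were covered at each copy in ABP1d, and in wild type all but coding base 1380 of tef102 were.

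The copies differed where their sequence differs, in the flanks. Of the 500 bp before the shared stretch, 10 were covered at tef101 in wild type and 13 in ABP1d. For tef102 the values were 157 and 140 bp, and for tef103 they were 202 bp in both lists. Thus tef103 was covered for 162 bp before its annotated start in both lists and tef102 for 78 bp in wild type and 61 in ABP1d, while the intervals of tef101 began 33 and 30 bp after its start. Of the 500 bp after it, 249 were covered at tef101 in wild type and 419 in ABP1d, at tef102 62 and 123, and at tef103 333 and 315. tef103 had the most covered bases before the shared stretch in both lists, within an unbroken interval of 1839 bp in wild type and 1821 in ABP1d. tef101 was covered mostly on the 3′ side. In wild type this 3′ coverage was broken: the long interval ended 79 bp past the stop codon, and 11 pieces with scores of 200 to 252 followed. In ABP1d one interval ran on to 347 bp past the stop codon.

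Some of this flanking coverage lies in neighbours. The end of tef101 overlaps that of efr3, which runs toward it, by 52 bp, and the intervals reached into the efr3 coding sequence, with 57 covered bp in wild type and 134 in ABP1d. All covered bases of efr3 lay in the body of tef101 or its flank. The start of tef102 overlaps the end of rbm8, which has the same direction, by 17 bp, and the 78 and 61 bp covered before tef102 all lie in rbm8. The annotation gives tef102 no 3′ untranslated region, so its 53 covered bp past the end in ABP1d are counted as flank. No protein-coding gene lies within 500 bp on the 3′ side of tef103. Its interval entered the long non-coding RNA gene SPNCRNA.1375, which is on the same strand, for 72 bp in wild type and 54 in ABP1d. On the 5′ side thf1 had no covered base.

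**Figure D1:**
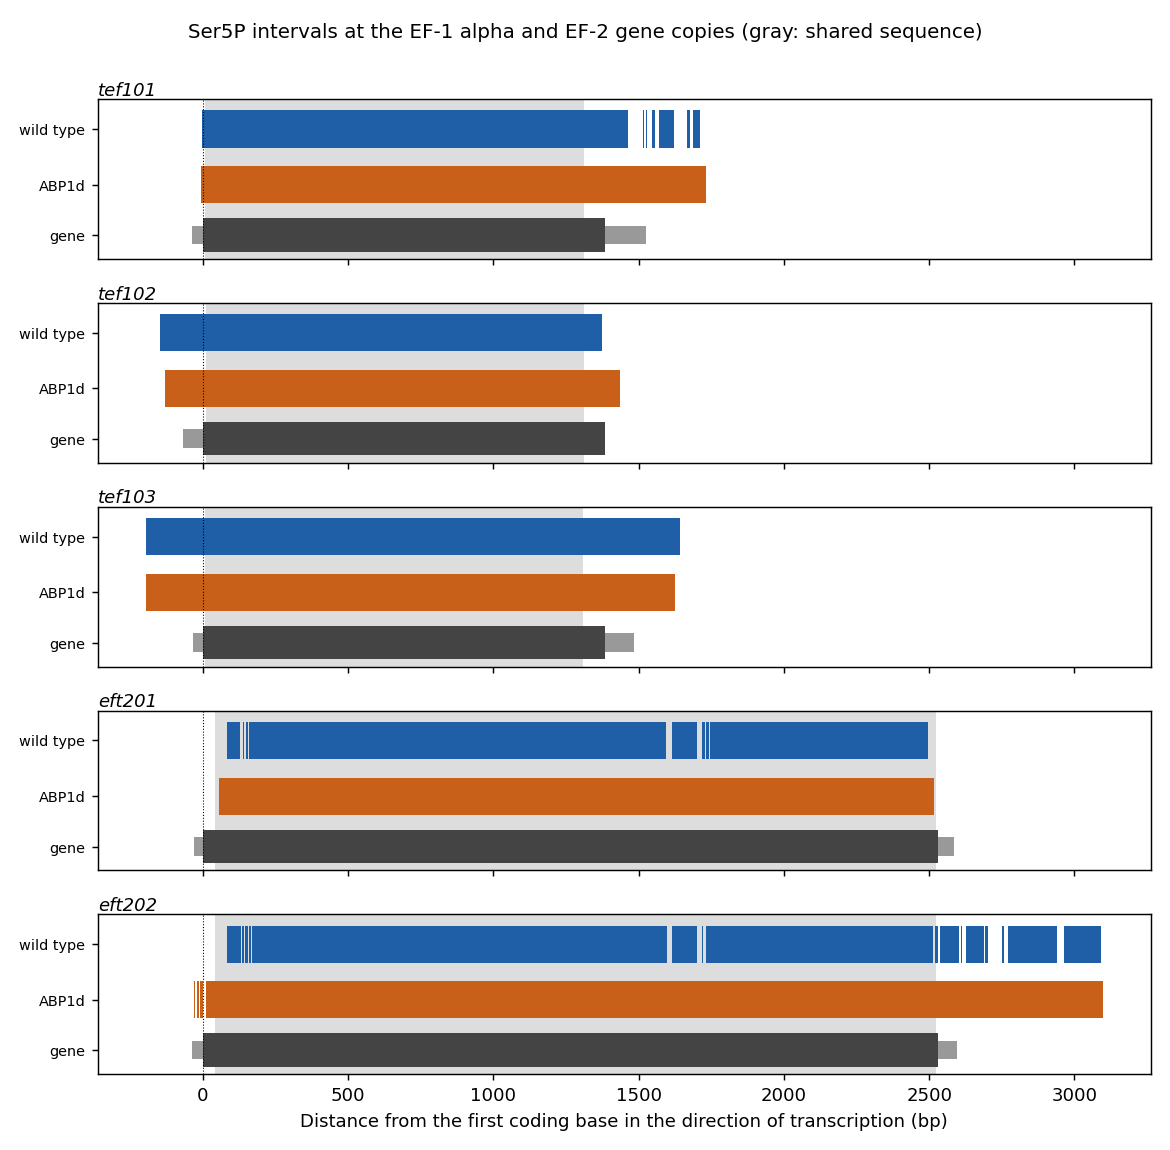
Deposited intervals at the EF-1 alpha and EF-2 copies in wild type (blue) and ABP1d (orange), drawn up to 500 bp past each gene and aligned at the first coding base (x axis in bp). Dark bars are coding sequence, light bars are untranslated regions, and gray shading is the shared stretch. Intervals extend past the shading on both sides at tef102 and tef103 and mainly downstream at tef101 and eft202, and stay within it at eft201.

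For EF-2 the coverage outside the shared stretch belonged to one copy. In wild type 2364 of 2619 bp of eft201 and 2445 of 2633 bp of eft202 were covered, and in ABP1d 2458 and 2609 bp. The highest score was 583 in wild type and 1016 in ABP1d at both copies. eft201 had no covered base within 500 bp on either side of the shared stretch in either list. All its covered bases are thus bases it shares with eft202, apart from the few differences within. Its last 90 bp in wild type and 72 bp in ABP1d were bare. eft202 had none before the shared stretch in wild type and 54 bp in ABP1d, and 382 and all 500 bp after it. The next gene downstream is rpl35A01, a ribosomal protein gene that runs toward eft202. In the 283 bp between them, 196 were covered in wild type and 283 in ABP1d. In the body of rpl35A01 itself 189 bp (wild type) and 360 bp (ABP1d) were covered, so the end of the eft202 coverage and that of its neighbour cannot be told apart.

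Interval edges in the EF-2 copies repeated each other in the wild-type list. Inside the coding sequence each copy had 18 wild-type intervals. Of these, 12 had the same score and width and the same place within 1 base in both copies, among them the longest, of 1428 bp. In ABP1d no such pairs could be formed, since eft201 had 1 interval inside the coding sequence and the long interval of eft202 ran past it, and 62 coding bases were covered in 1 copy alone. The remaining 6 wild-type intervals in each copy began within 25 bases of T1722C. The largest of them had the score 429 in both copies but ended at coding base 2497 in eft201 and 2514 in eft202. The 5 small ones had scores from 201 to 238 in eft201 and from 202 to 232 in eft202. At the differences A549G, T648C, C1206T and T2310G both copies were covered in both lists by intervals of equal score.

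The single genes differed more in how much of them was covered. tef3 (SPCC417.08, chromosome III, 1685645 to 1688951, plus strand), the eEF3 gene, had 2909 of 3307 bp covered in wild type and 3199 in ABP1d. In wild type coverage began 245 bp past the start with 14 intervals in the body, the highest with a score of 776 and a width of 2412 bp. All but 1 of the others, with scores of at most 313, were spread over the 3′ part, with gaps of up to 48 bp between them in the coding sequence. In ABP1d 1 interval of 3250 bp, with a score of 1038, ran from 108 bp past the start to 51 bp past the end. It was the third widest of that list.

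tef5 (SPCC1450.04, chromosome III, 1732751 to 1733847, plus strand) had the least coverage of the 9 in both lists and the largest difference between them. In wild type 107 of 1097 bp were covered, by 15 short intervals with scores of 200 to 230. In ABP1d 593 bp were covered by 4 intervals, of which the main one had 525 bp and a score of 358. Its wild-type scores were close to the lowest score of the list, so a small change in depth or scaling would move the covered length. The first covered base lay 676 bp past the start for wild type and 425 bp past it for ABP1d. The first exon and the intron of 247 bp had no covered base in either list. Of its 3′ untranslated region of 182 bp no base was covered in wild type and 103 were in ABP1d.

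tif1 and tif51 were nearly level in the lists. tif1 (SPAC1006.07, chromosome I, 5085530 to 5087031, plus strand) had 1278 of 1502 bp covered in wild type and 1281 in ABP1d, with highest scores of 603 and 641. The 2 lists placed these bases differently. In the coding sequence 1045 bp were covered in wild type and 991 in ABP1d, and in the 3′ untranslated region of 290 bp 233 and 290. The first covered base of tif1 lay 164 bp (wild type) and 163 bp (ABP1d) past the start, but in ABP1d a gap of 46 bp followed before the main interval. The last covered base lay 190 bp (wild type) and 164 bp (ABP1d) past the annotated end. tif51 (SPAC26H5.10c, chromosome I, 4141281 to 4142337, minus strand) had 966 of 1057 bp covered in wild type and 978 in ABP1d, with highest scores of 633 and 767. Its coding sequence of 474 bp and its 3′ untranslated region of 459 bp were covered completely in both lists. In the 5′ untranslated region of 124 bp 33 were covered in wild type and 45 in ABP1d.

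**Figure D2:**
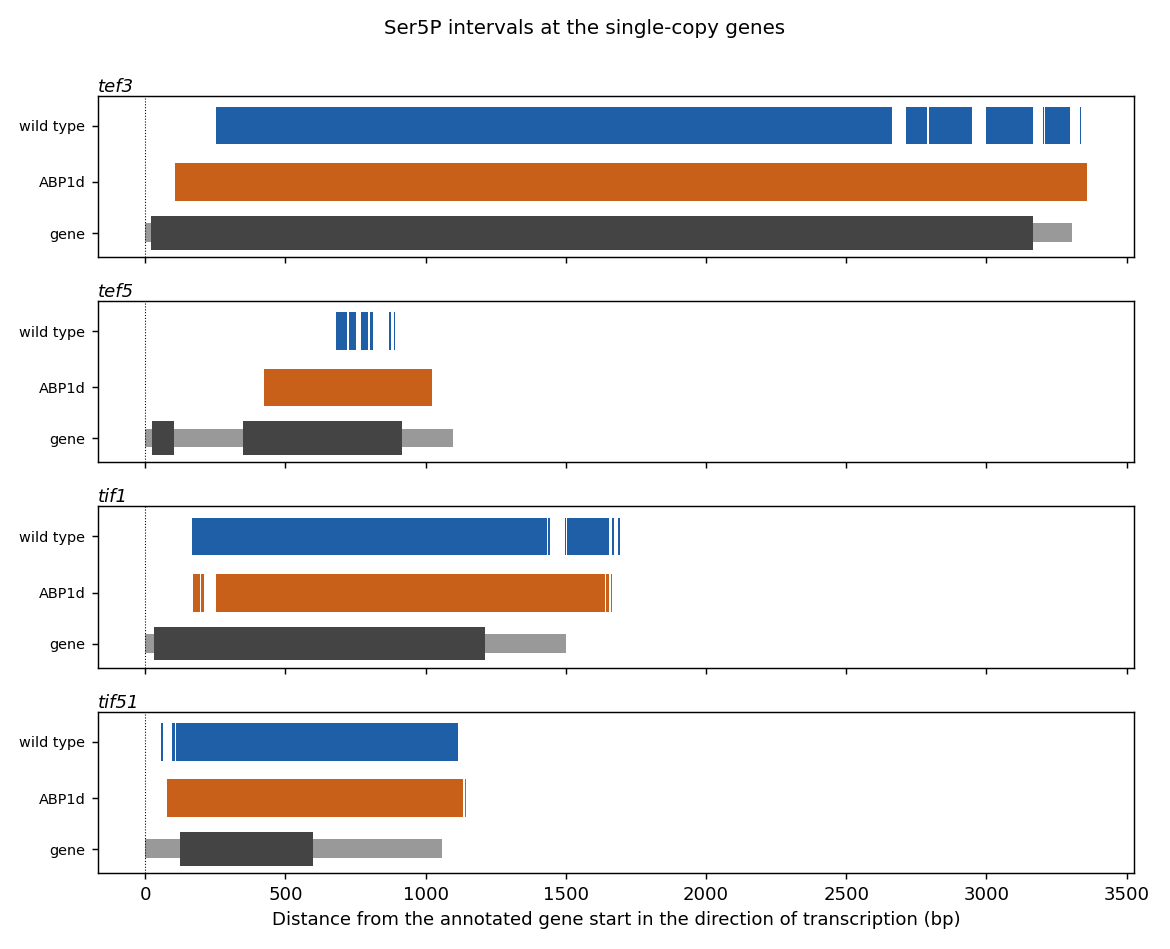
Deposited intervals at tef3, tef5, tif1 and tif51 in wild type (blue) and ABP1d (orange), by distance from the annotated start in bp. Dark bars are coding exons and light bars are untranslated regions and, in tef5, the intron, and the narrowest pieces are too thin to show. Coverage begins inside each gene, from 49 bp past the start of tif51 to 676 bp past that of tef5 in wild type, and passes the annotated end at tef3, tif1 and tif51.

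In these single genes the part next to the start had the least coverage or shared the lowest value. Each gene was cut in 4 equal parts. In the first part 69.5% of tef3, 55.5% of tif1 and 65.5% of tif51 were covered in wild type, and 86.9%, 41.1% and 70.1% in ABP1d. tef5 had no covered base there in either list. The middle parts of tef3, tif1 and tif51 were covered completely in both lists. The last part was covered at 82.3%, 84.8% and 100% in wild type and completely in all 3 in ABP1d. Over all protein-coding genes with an interval, the mean covered share of the first part was 18.3% in each list, and that of the following parts was 44.7%, 55.5% and 41.6% in wild type and 47.5%, 58.4% and 44.2% in ABP1d. The low first part is thus shared with the other genes of the lists. No covered base lay in the 500 bp before the start of tef3, tef5, tif1 or tif51 in either list. The position of the polymerase within an interval cannot be read from these files, which give no summit.

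**Figure D3:**
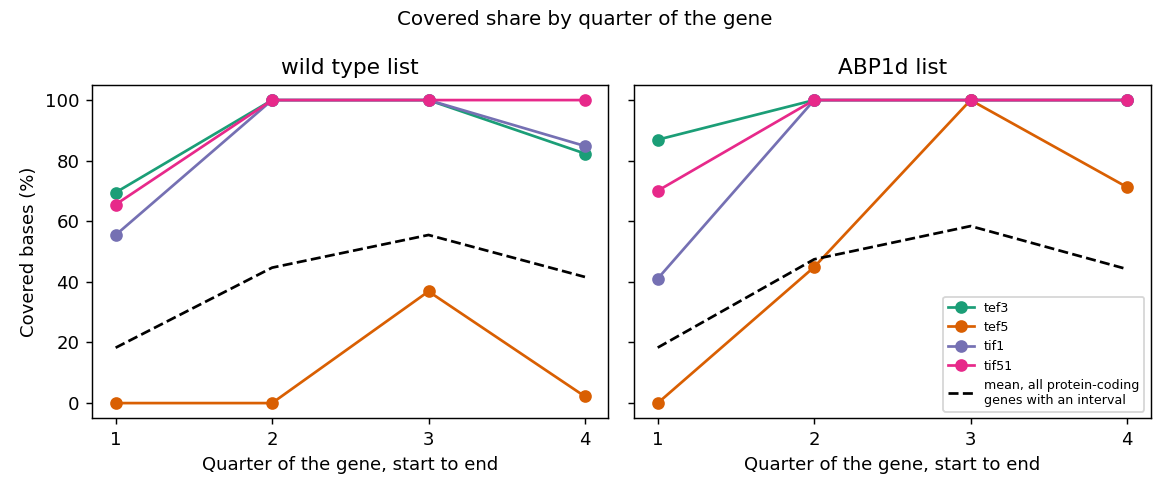
Covered share (%) of each of 4 equal parts from gene start to gene end for tef3, tef5, tif1 and tif51, with the mean over all protein-coding genes that had an interval (dashed, 367 in wild type and 364 in ABP1d). The first part has no more coverage than the middle ones at each gene, and the dashed mean is also lowest there. That mean falls in the last part, where tef3, tif1 and tif51 stay fully covered in ABP1d.

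Ranked among the intervals of each list, most of these genes stood near the top. The EF-1 alpha interval came first in both lists. By highest score the order in wild type was then tef3 (place 34 of 3242 intervals), tif51 (54), tif1 (60), the EF-2 copies (69) and tef5 (696). In ABP1d it was tef3 (place 32 of 2851), the EF-2 copies (34), tif51 (49), tif1 (71) and tef5 (191). The EF-2 copies came after tif1 and tif51 in wild type and before them in ABP1d. Without replicates the spread of a score is unknown, so neighbours in these orders are not shown to differ. Scores of the copies may include reads of every copy and are not comparable with those of single genes. For 8 of the 9 genes the highest interval was among the top 5% of its list, in both lists, with tef5 outside. The share of all genes that reached this was not counted, and the median interval was only 4 bp wide in both lists. Ranked by highest score among the 367 genes with a wild-type interval, tef3 was at place 37, tif51 56, tif1 60, the EF-2 copies 71 and tef5 321. Among the 364 genes of ABP1d these places were 34, 56, 79, 36 and 195.

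**Figure D4:**
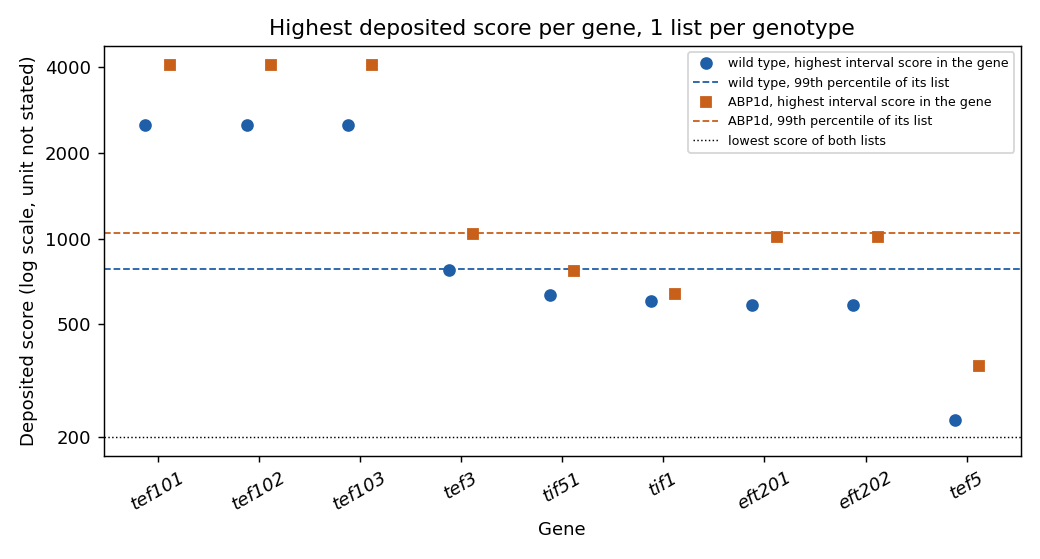
Highest deposited score (log axis, unit not stated) in each gene for wild type (circles) and ABP1d (squares), with the 99th percentile of each list (dashed) and the lowest score of both (dotted, 200). Within a list EF-1 alpha stands above the 99th percentile, tef3, tif1, tif51 and the EF-2 copies lie between it and the lowest score, and tef5 is lowest. Heights of different lists are not comparable.

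All 9 genes met an interval within the body in each list. Of all 5113 protein-coding genes 7.18% did so in wild type and 7.12% in ABP1d, and 6.24% in both. At least 90% of the body was covered in 6 of the 9 in wild type and 7 in ABP1d, against 0.587% and 0.704% of all genes. In the 9 bodies together 14501 of 16749 bp were covered in wild type and 15622 in ABP1d. More bases were covered in ABP1d in 8 genes, in none were there fewer, and tef103 was level. Of all genes, 412 had an interval in at least 1 list, and 54.4% of these had the longer coverage in ABP1d and 43.4% in wild type. The median difference, ABP1d minus wild type, was 64 bp in the 9 genes and 10 bp in the 412. These values are not scaled to covered length, whose wild-type median was 1468 bp in the 9 and 301.5 bp in the 412. Summed over the 412, which include the 9, it rose from 212711 bp (wild type) to 237393 bp (ABP1d). In the same order, the median covered share of the body was 91.4% and 96.7% in the 9, and 29.9% and 28.2% in the 412. The median share was thus higher in ABP1d in the 9 and lower in the 412. It is a share of the body, and the rise relative to covered length was not computed, so a larger rise of that kind is not shown for the 9. The 9 genes hold fewer than 9 observations, since 5 are copies, and tef5 and tef3 make up most of the difference in the single genes, with 486 and 290 bp against 12 in tif51 and 3 in tif1. Both lie on chromosome III, as do eft202 and tef101, with 164 and 64 bp. The genes on chromosomes I and II had 94 bp (eft201) or less. A gain is limited to the bases left uncovered in wild type. There, tef103 was covered over 100% and tef102 over 99.4% of the body, against 88.0% of tef3 and 9.75% of tef5. Whether the difference goes with the chromosome was not tested. Counted over coding exons only, 5 of the 9 had more in ABP1d.

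Coverage of most of these genes came in fewer pieces in ABP1d. The 9 bodies met 84 intervals in wild type and 22 in ABP1d, with the repeated pieces of the EF-2 copies counted at each copy, and the 4 single genes met 40 and 11. Fewer intervals were met in ABP1d by 7 of the 9 genes, and by 53.4% of the 412. The 412 genes together met 3012 and 2697. In eft201 there were 18 and 1, in tef3 14 and 1, in tef5 15 and 4, in eft202 22 and 7, in tif1 7 and 5, in tif51 4 and 1, and in tef101 2 and 1. tef102 and tef103 met 1 in each list. Many of the wild-type pieces beside long intervals had scores just above 200, but some scored higher, such as 313 in tef3 and 338 in the EF-2 copies. The number of pieces can depend on depth, which is unknown, and this was not tested.

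Other translation factors met intervals about as often as genes in general. The list held 45 genes, taken by the wording of their annotated product, which lets in some mitochondrial factors, with a few added by symbol, such as rli1 and gcn1. Of these, 4 met an interval of the wild-type list in the body and 5 one of the ABP1d list. Of all protein-coding genes 7.18% and 7.12% did. In at least 1 list 6 of the 45 met an interval, and 412 of all 5113 genes. None of the 45 was covered over 90% of its body. SPAC29A4.02c, annotated as the gamma subunit of EF-1 and so a partner of the tef5 product, had 354 of 1713 bp covered in wild type and 910 in ABP1d. Its highest scores were 249 and 295. tif512, annotated as a putative second eIF5A gene, had 423 and 420 of 610 bp, with scores of 415 and 462. sui1, the eIF1 gene, had 43 and 39 bp. tif11, the eIF1A gene, had 79 bp in wild type and none in ABP1d, while tif471, which encodes the scaffold eIF4G, and tif5 had none in wild type and 66 and 27 bp in ABP1d. Of the 6, 3 had more covered bp in ABP1d and 3 had fewer. SPAC29A4.02c and tef5, the genes for both eEF1B subunits, each had more covered bp in ABP1d, as did 54.4% of the 412 genes. Their highest wild-type scores, 249 and 230, were not far above the lowest score of 200.

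**Figure D5:**
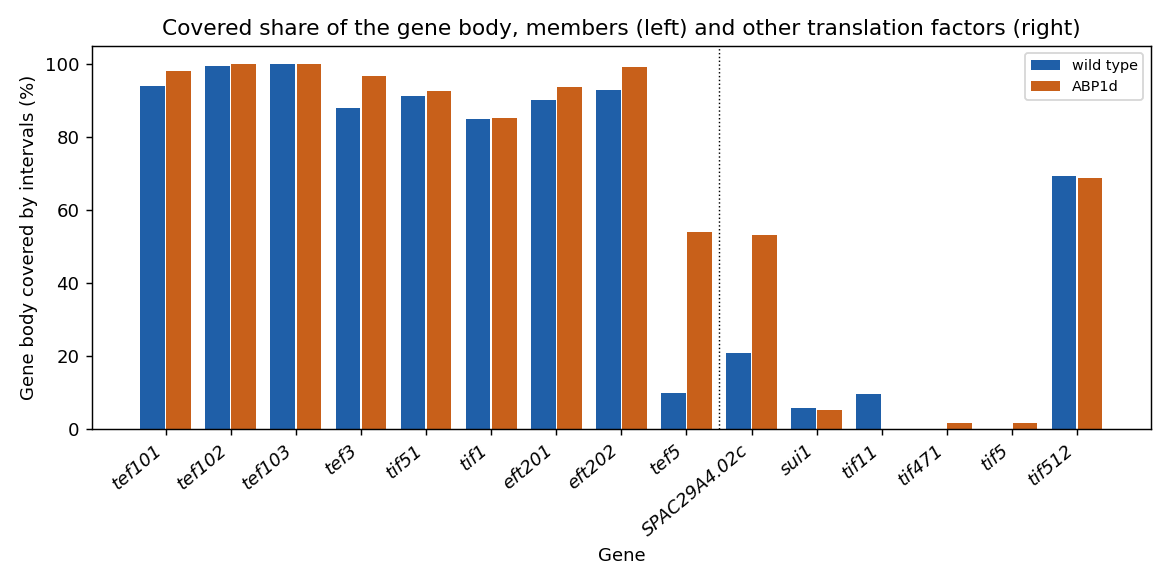
Share of the gene body covered by intervals (%, bars from 0) in wild type (blue) and ABP1d (orange), for the 9 genes on the left of the dotted line and, on the right, the 6 other translation factor genes that met an interval. The 9 genes other than tef5 lie above 85% in both lists, and tif512 has the most coverage among the others.

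The surroundings of some genes moved the same way. In the 50000 bp on either side of eft202, with the 9 genes and their flanks left out, 1448 bp were covered in wild type and 3099 in ABP1d, and all 6 other protein-coding genes with an interval there had more in ABP1d. Around tef5 there were none in wild type and 548 bp in ABP1d, and around tef3, whose window overlaps that of tef5, 364 and 809 bp. Around tif51 there were 2046 and 3636 bp and around tef101 4096 and 4817. The windows of tif51 and tef102 overlap too, and around tef102 there were 3225 and 3396 bp. The values went the other way around tef103, with 1734 and 1385 bp, around eft201, with 610 and 568, and around tif1, with 44 bp in wild type and none in ABP1d. Genes with more and with fewer covered bp in ABP1d numbered 4 and 2 around tef101 and around tif51, and 4 and 3 around tef102. They numbered 2 and 1 around tef3, 2 and 0 around tef5, and 2 and 2 around tef103. Around eft201 there were 1 and 1, and around tif1 0 and 1. Of the 412 genes 54.4% had more. The part of these surroundings in the differences at tef3, tef5 and eft202 was not tested.

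The sequences before the starts were searched for elements known from fission yeast genes of the translation machinery. HomolD (CAGTCAC, either strand), known as a core promoter element of ribosomal protein genes, occurred in the 250 bp before the annotated start of 5 of the 9 genes, tef101, tef102, tef103, tef3 and tif1, and in 4.52% of 5112 protein-coding genes with such a window. HomolE (ACCCT in tandem repeat, either strand), often found beside it, occurred before eft202 and in 1.21% of all. TATAAA (either strand) occurred before 4 of the 9, tef102, tef5, eft202 and tif1, and in 44.4% of all. Each match before these 4 genes lay on the strand opposite to the gene. The HomolD match lay 38 to 44 bp before the start of tef101, 49 to 55 before tef102, 52 to 58 before tef103, 47 to 53 before tif1 and 133 to 139 before tef3. The 200 bases before tef101 and tef103 are shown because intervals covered 162 of them at tef103 in both lists and none at tef101, and both carry the match, in capitals. The bases before tef102 lie in rbm8 and are not shown.
tef101 (chrIII:269517-269716, minus strand): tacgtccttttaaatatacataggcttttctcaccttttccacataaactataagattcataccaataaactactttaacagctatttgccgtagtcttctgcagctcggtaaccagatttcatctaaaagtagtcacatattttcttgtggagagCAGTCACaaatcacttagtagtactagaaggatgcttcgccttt
tef103 (chrII:627523-627722, minus strand): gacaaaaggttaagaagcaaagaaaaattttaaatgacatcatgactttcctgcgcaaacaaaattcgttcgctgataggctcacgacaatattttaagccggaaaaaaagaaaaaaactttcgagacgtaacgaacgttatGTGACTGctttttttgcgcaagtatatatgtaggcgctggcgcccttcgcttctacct
A match is a description of the letters and not a bound site.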

How the data were processed

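Serine 5 phosphorylated RNA polymerase II was measured by chromatin immunoprecipitation and sequencing. The submitters' processing notes name Bowtie 0.12.5. Which caller and genome build were used, whether inputs or scaling entered, and how multiply matching reads were placed is not given in the sources used here. In the deposited lists each line holds chromosome, start, end and a score, with no header. Depth per sample is unknown, so no confidence interval or limit was computed, and no p-value either, since a genotype has 1 list.

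The second column was read as a 0-based start. Coordinates were used with the RefSeq assembly ASM294v3: no interval passed a chromosome end, and protein-coding genes held 89.6% (wild type) and 90.4% (ABP1d) of covered bases, and no more than 78.7% and 79.8% after a shift of 1000 to 10000 bp. The equal intervals at the gene copies, found within 1 base of each other in this assembly, bear on the same point. Sequences were read from that assembly. The shared stretch of a copy runs from the first to the last base in a 50-mer found more than once, on either strand. The alternatives on unique 50-mers and 36-mers use another rule, and keep each base that lies in at least 1 such k-mer found once, so bases near a difference between copies are kept. Scripts used Python 3.11.15, numpy 2.4.6, pandas 2.3.3, Biopython 1.88 and matplotlib 3.10.9, and the coverage and repeat counts were tested on simulated data. The 9 genes, the other translation factor list (by product wording and by symbol) and the promoter elements were chosen with earlier results of these data known. All 9 genes are named, with their neighbours within 500 bp where these bear on a value, and each other translation factor with an interval. Of the symbols added to that list by name, 1 was not found in the annotation.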

Additional observations from a re-analysis of the deposited data

How the results depend on the processing

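Without replicates no sample could be left out, and no paired analysis was possible because each genotype has 1 list. In all 9 genes an interval lay in the body in both lists under every alternative tried. The count with more covered bp in ABP1d, 8, stayed at 8 for the upper 50% of each list by score, for lists of equal length, for a 1-based start, for bases in unique 50-mers or 36-mers and for intervals with at least 50% of their length in the gene. It was 7 with gaps of up to 100 bp filled and 5 for coding exons only. The fill turned tif51 to -30 bp (ABP1d minus wild type) and the coding exons turned tif1 to -54 bp and brought tef101 and tif51 to 0. The fill also brought tef3 from 290 to 137 bp, eft201 from 94 to 43 and tef101 from 64 to 3, and unique 36-mers brought eft201 to 59. Summed covered bp fell to 8483 in wild type and 9544 in ABP1d for bases in unique 50-mers and to 7656 and 8706 for 36-mers, since bases in no unique k-mer are left out. Copies on opposite strands lie 1 base apart when the start is read as 0-based: 62 coding bases of the EF-2 genes were then covered in 1 copy alone in wild type, and 29 with a 1-based start, so widths may be 1 bp too small for each interval.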
